A study of Mus musculus with 27 samples.

Results

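Chemokines, interleukins and their receptors were examined in the olfactory mucosa of mice, the lining of the upper nasal cavity that holds the odor-sensing neurons. The genes were taken by array symbol: those beginning with Ccl, Ccr, Cxcl or Cxcr and a digit, or with Il and a digit, except Cxcl1, Cxcl2 and Il1b. This gave 121 genes on 138 probes, out of 16675 named genes and 29922 probes on the array. They comprised 16 CC chemokine ligands, 12 CXC ligands, 16 chemokine receptors, 37 interleukins, 39 interleukin receptors and binding proteins, and the amino acid oxidase gene Il4i1. The symbols include the older names Cxcl4 (Pf4), Cxcr7 (Ackr3), Il8ra (Cxcr1), Il8rb (Cxcr2) and Il28ra (Ifnlr1).

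All animals were 25-day-old female mice of the FVB strain. The occluded group was mucosa behind a nostril that had been closed by cautery, the open group was mucosa behind the other nostril of the same animals, and the normal group was mucosa of other animals. The labels describe a sham cautery for these controls, whereas the design text calls them untreated. Each group had 3 biological replicates with 3 arrays each, 27 arrays in all. The sources used here do not state how many days the nostril had been closed, or whether a replicate was 1 mouse or a pool. RNA came from whole mucosa, so fewer cells of a type and less RNA per cell cannot be told apart in any value that follows.

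Chemokines are small secreted proteins that guide leukocytes through G protein-coupled receptors, and the CC and CXC classes are named for the spacing of their first cysteines. Most interleukins act through paired receptor chains that signal by JAK kinases and STAT factors, while the interleukin 1 family signals through MyD88 and NF-kB. Olfactory neurons are renewed throughout life, and resident macrophages of the mucosa take up the dying ones. The epithelia of the nose also make chemokines and interleukins themselves, among them the alarmin interleukin 33.

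Values are log2 intensities after quantile normalization, with the 3 arrays of a replicate averaged, and a difference is given with its standard error (SE). Tests are those of limma over all 29922 probes, two-sided, and a call is an adjusted p (Benjamini-Hochberg) under 0.05. Background noise was gauged on each array from the values below 0, and a limit was set at 3 times their root mean square. This noise limit was 11.6 to 24.1 in units of intensity, where array medians were 123 to 274. The number of arrays and animals limits the precision. Of 8 listed markers of mature olfactory neurons, 7 were measured and 0 of these were below noise on all arrays. Their summed intensity was 221388 to 245481 in occluded replicates, 189330 to 194662 in open replicates and 194097 to 202906 in normal replicates. Its part in the differences of the cytokine genes was not tested.

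Most of the genes had a probe signal above background noise. Probes of 85 of the 121 genes (70.2%) lay above the noise limit on all 27 arrays, against 80.9% of all named genes. This held for 12 of 16 CC ligands, 8 of 12 CXC ligands, 11 of 16 chemokine receptors, 22 of 37 interleukins and 31 of 39 interleukin receptors and binding proteins. The monocyte attractants Ccl7 and Ccl8 lay below the limit on every array. A further 13 genes lay below it on more than 13 arrays: Cxcl3, Ccr1, Ccr2, Cxcr6, Il1f9, Il2, Il4, Il6, Il21, Il31, Il1rapl2, Il9r and Il23r. The T cell cytokines Il2, Il4 and Il21 are among these. Il3, Il5, Il10 and Il13, which T cells also make, lay above the limit on all 27 arrays. A low signal can also come from a weak probe, so the absence of a transcript cannot be read from it. Nor does a signal above the limit show that a transcript was present. Tbr1 and Gad2, listed as markers of olfactory bulb or brain, also lay above it on all 27 arrays. Of the Il12a probes, 1 had a mean log2 intensity of 10.36 and the other was below noise on 26 arrays.

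**Figure D1:**
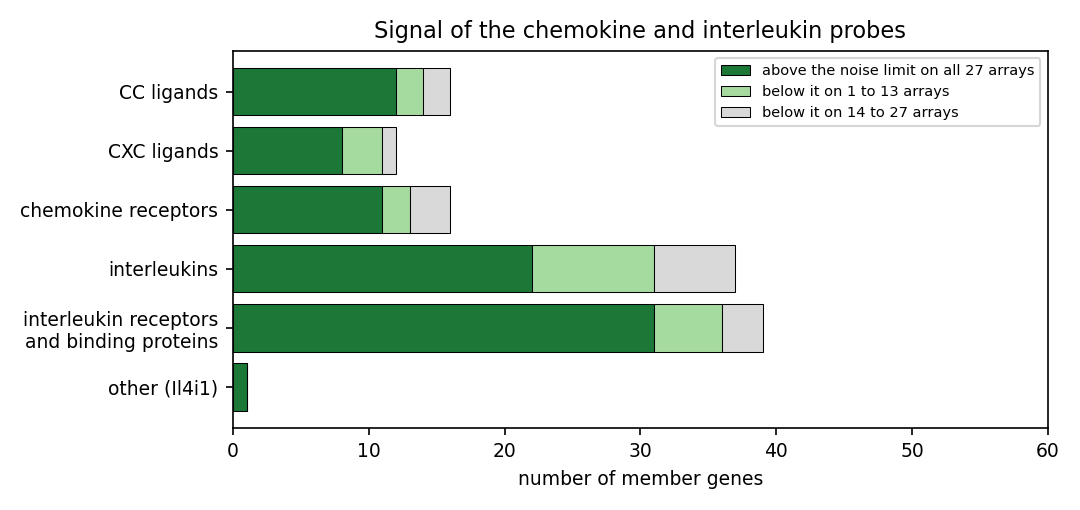
Number of genes (horizontal axis) in each class of the set (vertical axis), split by how often the gene's probe lay above the noise limit of its array. Of 121 genes, 85 were above it on all 27 arrays, and interleukins had the most genes that dipped below it, 15 of 37.

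No gene of the set passed the adjusted threshold in any of the 3 comparisons. Between occluded and open mucosa 0 of 121 were called, where 0.221% of all probes were. Between occluded and normal mucosa 0 were called against 0.00668% of all probes, and between open and normal mucosa 0 against 0%. The smallest adjusted p among the genes was 0.16, that of Ccl4 in occluded against open mucosa. Against normal mucosa the smallest was 0.52 for the occluded side, again that of Ccl4, and 1.0 for the open side. At an unadjusted p under 0.05, 3 genes were higher and 4 lower in occluded than in open mucosa, that is 2.48% and 3.31% of the set, against 3.56% and 2.63% of all probes. In occluded against normal mucosa 1 gene was higher and 1 lower, 0.826% of the set each, against 1.62% and 1.25% of all probes. In open against normal mucosa 2 were higher and 1 lower, 1.65% and 0.826% of the set, against 0.789% and 0.805% of all probes. None of these counts exceeded 4 genes.

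The set as a whole was centred near 0. Its median log2 difference was 0.000182 in occluded against open mucosa, with 61 genes above 0 and 60 below, and the median of all probes was 0.0042. In occluded against normal mucosa the median was 0.018 (65 above 0, 56 below) and that of all probes 0.0063. In open against normal mucosa it was 0.055 (68 above 0, 53 below) and that of all probes -0.0038. Differences of at least 1 on the log2 scale were found for 1, 2 and 2 genes in the 3 comparisons, and 103, 111 and 106 of the genes differed by less than 0.5. For the 85 genes above noise on all arrays, the 95% interval of the difference lay within 1 log2 unit of 0 for 77, 67 and 66 genes. For those genes a difference of more than 2-fold lies outside the interval, and no statement is made on smaller ones.

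**Figure D2:**
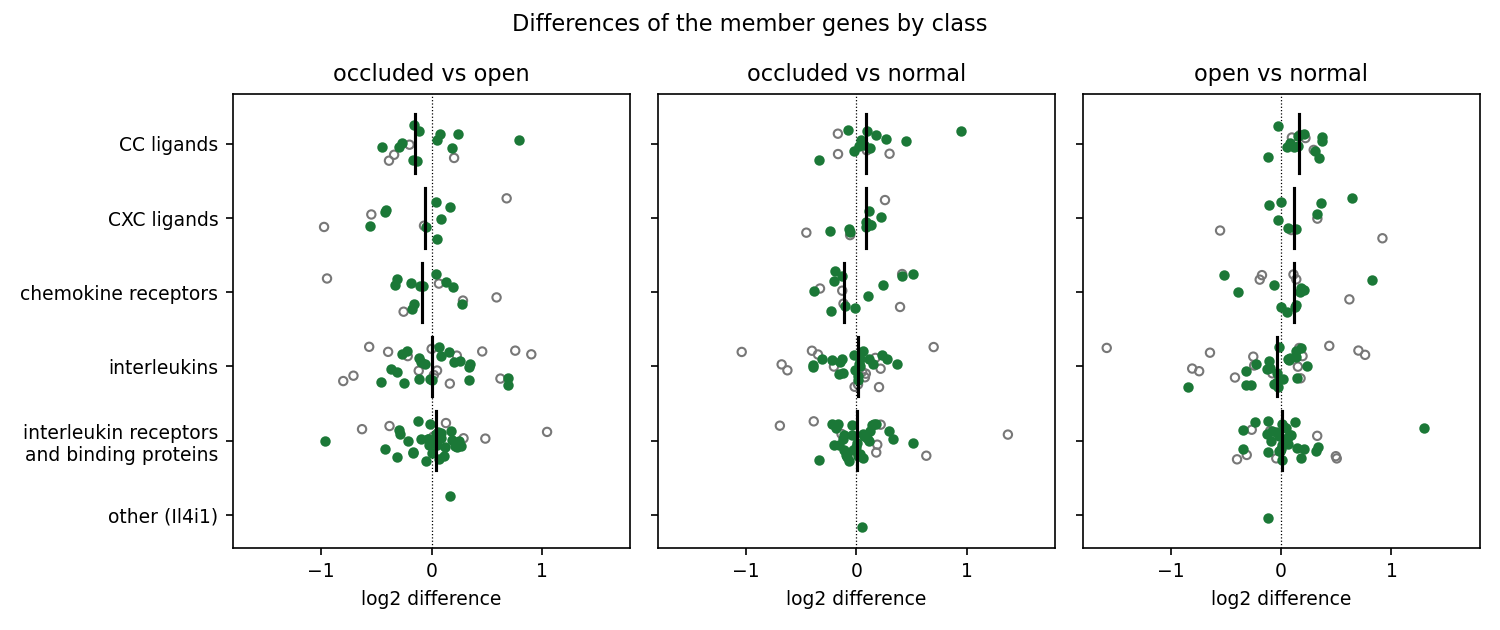
Log2 difference of each gene (horizontal axis) by class (vertical axis) in the 3 comparisons, with vertical bars at class medians; filled points are genes above the noise limit on all arrays and open points are genes below it on at least 1 array. All class medians lie between -0.15 and 0.16, and the largest difference, that of Il21 in open against normal mucosa at -1.58, is an open point.

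The CC ligand Ccl4, or macrophage inflammatory protein 1 beta, attracts monocytes, macrophages and T cells. It had the smallest p of the set in both comparisons with the occluded side, and was 1.74 times as high there as in open mucosa and 1.93 times as high as in normal mucosa. Its log2 intensity was 8.45, 7.77 and 8.10 in the 3 occluded replicates, 7.37, 7.16 and 7.40 in the open replicates and 7.24, 7.04 and 7.19 in the normal replicates. Each occluded value lay above every open and normal value, and the open and normal values overlapped. The difference was 0.80 ± 0.16 (SE, 95% interval 0.43 to 1.17, 1.74-fold) against open mucosa (adjusted p = 0.16). Against normal mucosa it was 0.95 ± 0.21 (1.93-fold, adjusted p = 0.52). Open and normal mucosa differed by 0.16 ± 0.21. Neither comparison passed over all probes.

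The other CC ligands differed by less than 0.5 on the log2 scale in both comparisons. Ccl3, a close relative of Ccl4, differed by -0.11 ± 0.28 between occluded and open mucosa and by 0.09 ± 0.36 between occluded and normal mucosa. Ccl5, which attracts T cells and eosinophils, measured 3.72, 4.16 and 4.11 in occluded, 4.35, 4.27 and 4.54 in open and 4.01, 4.12 and 4.35 in normal replicates. All occluded values were below all open values, by 0.39 on average (-0.39 ± 0.16, adjusted p = 0.76), but 9 of 27 arrays were below the noise limit. The difference of Ccl5 was -0.055 when 50 was added to the intensities before log2. Ccl20, a ligand of Ccr6 made by epithelia, had 8.03, 8.26 and 7.69 in occluded, 8.76, 8.15 and 8.41 in open and 8.60, 8.20 and 8.18 in normal replicates. Its occluded and open values overlapped (-0.45 ± 0.20, adjusted p = 0.82).

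The eotaxins Ccl11 and Ccl24, which act on eosinophils through Ccr3, differed by -0.17 ± 0.22 and 0.23 ± 0.31 between occluded and open mucosa. Ccl17 and Ccl22, ligands of Ccr4 on T helper cells, differed by -0.26 ± 0.18 and 0.05 ± 0.25. The monocyte attractants Ccl2 and Ccl12 differed by -0.34 ± 0.31 and 0.18 ± 0.26. Ccl25, the ligand of Ccr9 on gut-homing lymphocytes, had a difference of -0.16 ± 0.20, and Ccr9 one of 0.28 ± 0.22. Ccl9, expressed by myeloid cells, measured 11.14, 10.35 and 9.90 in occluded, 10.53, 10.37 and 10.26 in open and 10.56, 9.40 and 10.09 in normal replicates. Its 3 groups overlapped.

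In open against normal mucosa, 14 of the 16 CC ligands lay above 0, with a class median of 0.16. None of the 16 had an unadjusted p under 0.05 there, and the 14 values were at most 0.37. Among the 14 are Ccl7 and Ccl8, whose values are noise on all arrays. Only Ccl6, a mouse chemokine of myeloid cells, had groups that did not overlap: 8.32, 7.77 and 7.88 in open against 7.61, 7.76 and 7.49 in normal replicates. In occluded against open mucosa 6 of the 16 lay above 0 and 10 below. These comparisons share the open samples.

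Several CXC ligands known from epithelia and stroma gave a clear signal without a difference between groups past the threshold. Cxcl14, which epithelia make without stimulation, had 10.92, 10.67 and 10.97 in occluded, 10.58, 11.19 and 10.67 in open and 11.07, 11.04 and 10.66 in normal replicates. The 3 groups of Cxcl14 overlapped, with a difference of 0.04 ± 0.19 between occluded and open mucosa. A second Cxcl14 probe, also above noise on all arrays, gave -0.34 ± 0.15 (adjusted p = 0.82). In occluded against normal mucosa this second probe gave -0.46 ± 0.20 and the first -0.07 ± 0.25. Between occluded and open mucosa Cxcl16, a membrane-bound ligand of Cxcr6, differed by 0.08 ± 0.16, and its second probe by -0.24. Cxcl4, or platelet factor 4, differed by -0.42 ± 0.34. Cxcl9 and Cxcl10, which interferons induce, differed by -0.05 ± 0.20 and 0.05 ± 0.23.

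Cxcl5 attracts neutrophils through Cxcr2 and is made by airway epithelium. It measured 10.41, 11.04 and 11.12 in occluded, 10.97, 11.26 and 11.59 in open and 9.98, 10.99 and 10.93 in normal replicates. The open value was the higher side in each of the 3 same-numbered pairs, and the groups overlapped. The difference was -0.42 ± 0.25 in occluded against open mucosa (adjusted p = 0.93), 0.22 ± 0.32 in occluded against normal and 0.64 ± 0.32 in open against normal mucosa (adjusted p = 1.0). Without normal replicate 1 the last was 0.31, and it was 0.82 without normal replicate 2. Cxcl3, another neutrophil attractant, was below noise on 26 of 27 arrays.

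Cxcl12, which retains leukocytes and progenitors through Cxcr4, varied more within groups than between them. Its values were 6.73, 8.33 and 8.25 in occluded, 7.39, 8.60 and 9.01 in open and 6.73, 8.69 and 8.61 in normal replicates. Replicate 1 was lowest in all 3 groups, and the SD of a group was between 0.84 and 1.11. The difference between occluded and open mucosa was -0.56 ± 0.48, and the second Cxcl12 probe gave -0.43. Its receptor Cxcr4 differed by -0.16 ± 0.22 and the scavenging receptor Cxcr7 by -0.10 ± 0.19.

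Chemokine receptors are mostly leukocyte genes, and the one with the smallest p was Il8rb, which encodes Cxcr2, the neutrophil receptor for Cxcl5. Its values were 8.53, 8.23 and 7.92 in occluded, 9.07, 8.08 and 8.46 in open and 7.73, 8.0 and 7.41 in normal replicates. Every open value lay above every normal value, while the occluded values overlapped both. The difference was 0.82 ± 0.29 in open against normal mucosa (1.77-fold, adjusted p = 1.0). It was 0.51 ± 0.29 in occluded against normal and -0.31 ± 0.23 in occluded against open mucosa. Without open replicate 1 the difference between open and normal mucosa was 0.52, and without occluded replicate 1 that between occluded and normal mucosa was 0.29. A second Il8rb probe was below noise on 24 arrays. Il8ra, or Cxcr1, a second receptor for neutrophil attractants, differed by 0.12 ± 0.26 in open against normal mucosa.

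Of the other receptors, Ccr10, which guides lymphocytes to skin and mucosa, had 6.01, 6.22 and 6.10 in occluded, 6.53, 5.98 and 5.42 in open and 6.78, 6.23 and 6.48 in normal replicates. Its occluded values lay just below the normal ones (-0.39 ± 0.31). Ccr7, which leads dendritic cells to lymph nodes, differed by 0.28 ± 0.24 between occluded and open mucosa and by 0.41 ± 0.31 between occluded and normal mucosa. Ccr3, Ccr4, Ccr6, Ccr8 and Cxcr3 differed by at most 0.20 in either direction between occluded and open mucosa. Ccr1, Ccr2 and Cxcr6 were read above noise on few arrays, so their differences are not interpreted.

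Markers of leukocytes were summed beside these genes. The 8 of 10 neutrophil markers measured had a summed intensity of 17953 to 46647 in occluded, 21691 to 85472 in open and 16951 to 49512 in normal replicates. None of the 8 was below noise on all arrays, and their median difference was 0.59 in open against normal and -0.12 in occluded against open mucosa. The brightest of the 8, Ltf, had a mean log2 intensity of 14.20 and differed by 0.36 ± 0.92 and -0.0019 ± 0.72 in these comparisons. Only Retnlg among the 8 had an unadjusted p under 0.05 in them. Retnlg differed by 0.88 ± 0.36 in open against normal (adjusted p = 1.0) and by -0.70 ± 0.28 in occluded against open mucosa (adjusted p = 0.76). The 13 macrophage and monocyte markers summed to 9258 to 15478 in occluded, 11227 to 14264 in open and 11278 to 12076 in normal replicates, with Cd163 below noise on all arrays. Their median difference was -0.20 in occluded against open and 0.16 in open against normal mucosa. Apart from Cd163, only Cd14 had an unadjusted p under 0.05 in occluded against open mucosa (-0.64 ± 0.27, adjusted p = 0.80). The 8 of 10 T cell markers measured summed to 3456 to 4831 in occluded, 3255 to 4492 in open and 3530 to 4195 in normal replicates. The 10 of 11 markers of mast cells, basophils and eosinophils measured summed to 2707 to 3405 in occluded, 4063 to 4374 in open and 2984 to 4471 in normal replicates, so that all occluded sums lay below all open sums. The brightest of them, the eosinophil granule gene Prg2, differed by -1.11 ± 0.28 in occluded against open mucosa (adjusted p = 0.32), while the median difference of the 10 was -0.0063. The 7 of 8 B and plasma cell markers measured summed to 6027 to 6242 in occluded, 6237 to 6912 in open and 5082 to 5964 in normal replicates, lowest in the normal group. The brightest of the 7, Blnk, differed by 0.21 ± 0.16 in occluded against normal and by 0.30 ± 0.16 in open against normal mucosa. Cd79a, the next brightest, differed by -0.12 ± 0.32 and -0.09 ± 0.32, and the medians of the 7 were 0.059 and 0.099. Only Ms4a1 among the 7 had an unadjusted p under 0.05 in any comparison, and it moved against the sums. Ms4a1 differed by 0.73 ± 0.19 in occluded against open mucosa (adjusted p = 0.33), where the median of the 7 was -0.086. In open against normal mucosa Ms4a1 differed by -0.67 ± 0.24. None of the T cell, B cell or mast cell lists had a marker below noise on all arrays. The part of these cells in the values of Il8rb, Il1r2, Cxcl5, Ccl4, the eotaxins, Ccr3 and Il5ra was not tested.

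Il33 is an alarmin, a nuclear cytokine that epithelial and other barrier cells release when damaged. Its log2 intensity was 11.66, 11.87 and 11.60 in occluded, 11.96, 12.20 and 12.33 in open and 12.22, 12.05 and 12.02 in normal replicates. Each occluded value lay below every open and every normal value. The difference was -0.46 ± 0.14 in occluded against open mucosa, where the open level was 1.37 times the occluded level (adjusted p = 0.54). It was -0.39 ± 0.18 in occluded against normal mucosa and 0.06 ± 0.18 in open against normal mucosa. The bright probe had a small spread, with an SD of 0.11 to 0.19 within groups. Without replicate 3 the occluded against open difference was -0.32.

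The accessory chain Il1rap, which the receptors of interleukin 1, interleukin 33 and interleukin 36 share, was measured near the noise limit. It had 4.66, 4.33 and 4.26 in occluded, 4.81, 4.76 and 4.82 in open and 5.37, 4.72 and 5.24 in normal replicates. The occluded values lay below all open and all normal values. The differences were -0.38 ± 0.17 against open (adjusted p = 0.82) and -0.69 ± 0.22 against normal mucosa (adjusted p = 1.0). A second Il1rap probe, below noise on 25 arrays, gave 0.66 in occluded against open mucosa, and the mean of both probes was 0.14.

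Il1r2 is the decoy receptor that binds interleukin 1 without signalling, and neutrophils and monocytes are known to carry it. Its values were 6.26, 5.74 and 5.49 in occluded, 6.80, 6.22 and 7.35 in open and 5.23, 5.69 and 5.57 in normal replicates. All open values exceeded all normal values, and the occluded and open groups overlapped by 1 value, although the open side was higher in each same-numbered pair. The difference was 1.29 ± 0.36 in open against normal mucosa (2.45-fold, adjusted p = 1.0). In occluded against open mucosa it was -0.96 ± 0.28, so that the open level was 1.95 times the occluded level (adjusted p = 0.45). Without replicate 3 this was -0.51. Occluded and normal mucosa differed by 0.33 ± 0.36. With 50 added before log2 the open against normal difference was 0.75.

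Among the other genes of the interleukin 1 family, the interleukin 36 genes Il1f6 and Il1f9 lay below noise on 9 and 16 arrays. Il1f6 differed by 0.76 ± 0.72 in occluded against open mucosa, and Il1f9 by -1.04 ± 0.68 in occluded against normal mucosa. Il1r1, the signalling receptor, had 5.75, 6.80 and 6.42 in occluded, 6.32, 6.87 and 7.06 in open and 5.61, 7.03 and 7.36 in normal replicates. Replicate 1 was lowest in all 3 groups, and the difference between occluded and open mucosa was -0.43 ± 0.36. The cytokine gene Il1a differed by -0.37 ± 0.20, and its second probe, below noise on 10 arrays, by 0.07 ± 0.44. Il1rn, which encodes the receptor antagonist, differed by 0.34 ± 0.22. Il18, an epithelial cytokine activated by inflammasomes, had 11.27, 11.43 and 11.57 in occluded, 11.51, 11.56 and 11.50 in open and 11.74, 11.76 and 11.44 in normal replicates, which overlapped throughout. The receptor chain Il18r1 differed by -0.02 ± 0.23 between occluded and open mucosa. Il18bp, the secreted inhibitor of interleukin 18, was 7.96, 7.91 and 7.87 in occluded and 7.58, 7.78 and 7.74 in open replicates, without overlap (0.21 ± 0.14, adjusted p = 0.96), and 8.0, 8.13 and 7.70 in normal replicates.

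Il22, a lymphocyte cytokine that acts on epithelial cells, had the smallest p among interleukins above 0 in occluded against open mucosa. It measured 7.29, 7.08 and 7.12 in occluded, 6.91, 6.65 and 5.87 in open and 6.94, 6.94 and 6.49 in normal replicates. Every occluded value lay above all open and normal values, and the open group was spread by its replicate 3. The difference was 0.69 ± 0.23 against open mucosa (1.61-fold, adjusted p = 0.56) and 0.37 ± 0.29 against normal mucosa. A second Il22 probe gave 0.42 and 0.08 in these comparisons, and the first difference was 0.41 without replicate 3. The receptor chain Il22ra1 differed by 0.04 ± 0.20, and the soluble binding protein Il22ra2 by -0.31 ± 0.69.

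Il22 and Il1r2 were, of the genes with an entry in the RefSeq promoter table, the ones with the smallest p above and below 0 in occluded against open mucosa, and their promoter windows are shown for that reason. That table listed 108 promoters of 93 of the genes; Ccl4 and Cxcl5 have no entry. Each window runs from 250 bases before to 50 after the gene's start, 5′ to 3′ on the plus strand of GRCm38.p6, with a motif found by search on both strands in capitals. For Il1r2 (chr1:40085843-40086142) the capitals mark TTCNNNGAA, the spaced half-sites that STAT factors bind, 111 bases before the start. For Il22 (chr10:118204714-118205013) they mark TATAAA, the letters of the core promoter element that the factor TBP binds, 170 bases before it.
Il1r2: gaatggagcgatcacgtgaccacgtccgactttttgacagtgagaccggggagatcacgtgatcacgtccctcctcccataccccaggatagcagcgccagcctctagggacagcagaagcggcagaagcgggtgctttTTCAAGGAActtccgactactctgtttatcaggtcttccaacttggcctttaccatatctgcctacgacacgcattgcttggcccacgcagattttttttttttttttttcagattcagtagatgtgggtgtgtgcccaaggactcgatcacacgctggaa
Il22: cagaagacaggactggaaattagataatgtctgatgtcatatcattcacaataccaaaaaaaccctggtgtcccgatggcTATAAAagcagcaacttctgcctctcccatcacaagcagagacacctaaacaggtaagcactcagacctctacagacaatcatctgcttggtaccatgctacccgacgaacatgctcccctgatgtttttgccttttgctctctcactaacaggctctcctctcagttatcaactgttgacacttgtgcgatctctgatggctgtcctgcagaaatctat
Among the 108 promoters 13% hold TTCNNNGAA and 22.2% TATAAA, against 8.3% and 13.6% of all 32851 promoters listed. The NF-kB consensus was found in 14.8% of the 108 and 8.46% of all, and the AP-1 motif TGANTCA in 18.5% and 7.81%. A match describes the letters in the window and shows no binding.

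Il7, which stromal cells make and which keeps lymphocytes alive, was 7.86, 8.14 and 7.81 in occluded, 7.69, 7.38 and 7.71 in open and 7.72, 7.88 and 7.52 in normal replicates. All occluded values lay above all open values (0.34 ± 0.16, adjusted p = 0.85), and a second probe gave 0.61. Without replicate 2 the difference of Il7 was 0.14. Its receptor chain Il7r differed by 0.19 ± 0.21, with a second probe at -0.54, and the common gamma chain Il2rg by 0.07 ± 0.20. Il15, a relative that supports natural killer cells, differed by -0.06 ± 0.16 and its receptor chain Il15ra by -0.02 ± 0.25.

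Il2 and Il21, cytokines of activated T cells, were hard to read: Il2 lay below noise on 17 of 27 arrays and Il21 on 26. Il21 had a difference of -1.58 ± 0.43 in open against normal mucosa (adjusted p = 1.0), and of 0.90 ± 0.33 in occluded against open mucosa (adjusted p = 0.68). Since nearly all its values are noise, no fold is given. Il2 differed by -0.80 ± 0.29 in occluded against open mucosa (adjusted p = 0.65) and by 0.15 when the median of the repeat arrays replaced their mean. Il13, a type 2 cytokine, differed by 0.08 ± 0.27, its receptor chains Il4ra and Il13ra1 by 0.27 ± 0.17 and -0.03 ± 0.14, and Il25, a cytokine of tuft cells, by -0.02 ± 0.16. Il17a, below noise on 6 arrays, differed by 0.62 ± 0.36 and by 0.12 without replicate 3, and its receptor chain Il17ra differed by -0.05 ± 0.17. Il17rd, a related chain that also dampens growth factor signalling, differed by 0.51 ± 0.32 in occluded against normal mucosa, and by 0.18 without normal replicate 3. The anti-inflammatory cytokine Il10 differed by 0.20 ± 0.15, with Il10ra at -0.17 ± 0.19 and Il10rb at -0.21 ± 0.14.

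Il27, a subunit of a cytokine of myeloid cells, varied widely within groups, with an SD of 0.50 to 1.31. It had 11.79, 9.28 and 9.91 in occluded, 9.88, 9.96 and 9.06 in open and 10.75, 11.13 and 9.55 in normal replicates. The difference between occluded and open mucosa was 0.69 ± 0.53 and was 0.08 without replicate 1. Il6, a central cytokine of inflammation, was below noise on 23 arrays, whereas its receptor chains Il6ra and Il6st were read on all 27 and differed by 0.04 ± 0.16 and -0.29 ± 0.17. Il11 and Il12a differed by -0.11 ± 0.24 and 0.00 ± 0.17, and a second Il12a probe, below noise on 26 arrays, gave -0.43. Il16 differed by 0.70 ± 0.45 in occluded against normal and in open against normal mucosa alike, where normal replicate 1 was lowest, at 3.97. Without normal replicate 1 both differences of Il16 were 0.16. Il5ra, the eosinophil receptor for interleukin 5, differed by -0.40 ± 0.23 in open against normal mucosa.

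**Figure D3:**
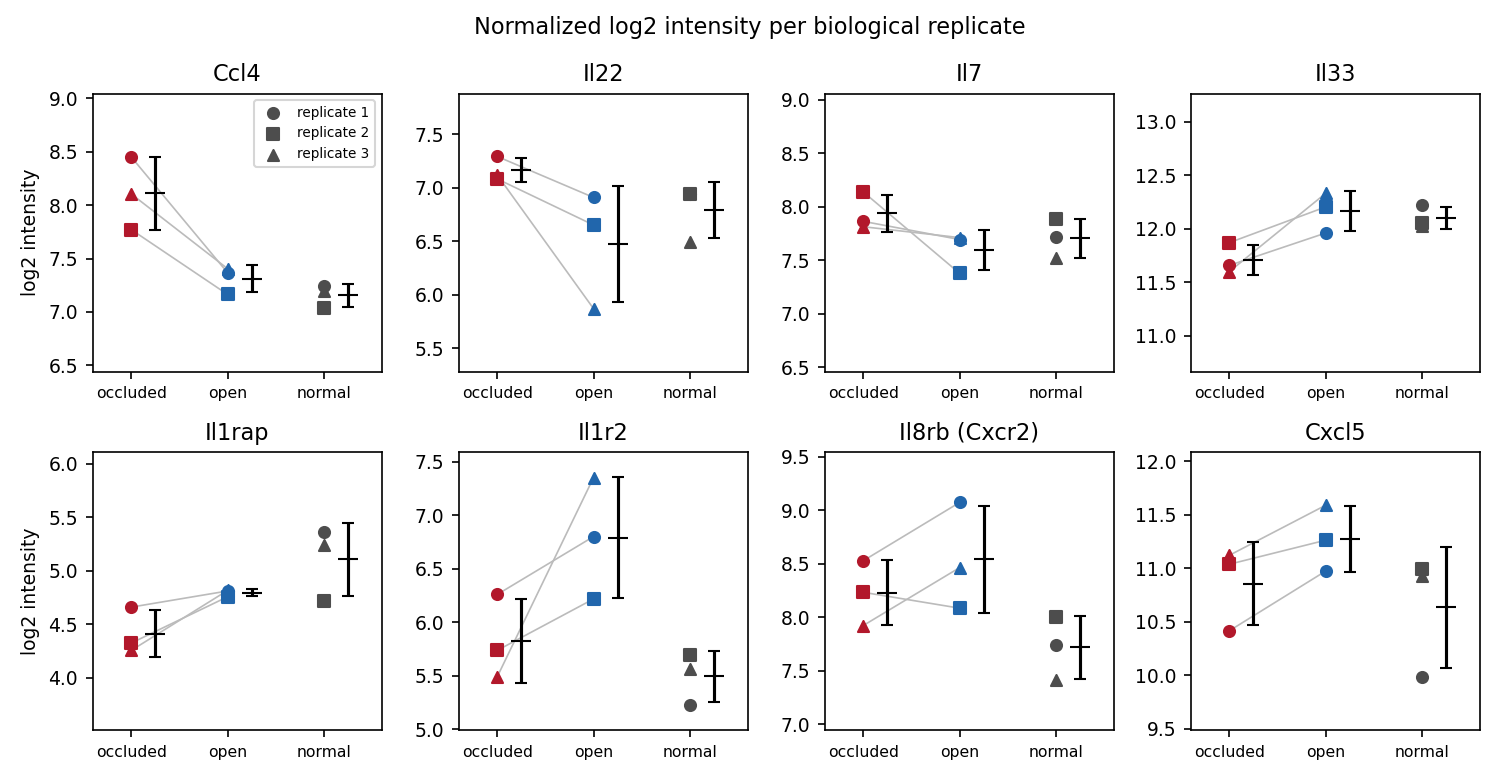
Log2 intensity (vertical axis) of 8 genes in the 3 biological replicates of occluded, open and normal mucosa, with group mean and SD beside the points; grey lines join occluded and open replicates of the same number. Occluded values of Ccl4 and Il22 lie above, and those of Il33 and Il1rap below, both other groups, while Il1r2 and Il8rb are highest in open mucosa.

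Groups without overlap were about as frequent in the set as on the array. In occluded against open mucosa they were found for 8 of 121 genes (6.61%), against 6.7% of all probes. Ccl4, Il7, Il22 and Il18bp were higher and Ccl5, Il2, Il33 and Il1rap lower on the occluded side. In occluded against normal mucosa there were 7 (5.79%), against 6.67% of all probes: Ccl4 and Il22 higher, and Ccr10, Il21, Il33, Il1rap and Il10rb lower. In open against normal mucosa there were 6 (4.96%), against 4.27%: Ccl6, Il8rb, Il12b and Il1r2 higher, and Il21 and Il5ra lower. Ccl4, Il22, Il33 and Il1rap stand in both comparisons of the occluded side, which share the occluded samples.

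Difference and signal were also compared with named genes of like intensity. In occluded against open mucosa 12 of the 121 genes (9.92%) lay outside the 5th to 95th percentile of those genes, where 10% of named genes lie by construction. In occluded against normal mucosa there were 7 (5.79%) and in open against normal mucosa 16 (13.2%). Ccl4 and Il33 were outside in both comparisons of the occluded side, and Cxcl4, Cxcl5, Cxcl12, Il1f6, Il1r2 and Il27 in both comparisons of the open side, which share the open samples. Il1rapl2, an accessory receptor chain on the X chromosome and below noise on 25 arrays, reached 1.05 ± 0.53 in occluded against open mucosa and still lay within the range there. In occluded against normal mucosa Il1rapl2 was at 1.37 and lay outside the range, whose 95th percentile was 1.09.

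**Figure D4:**
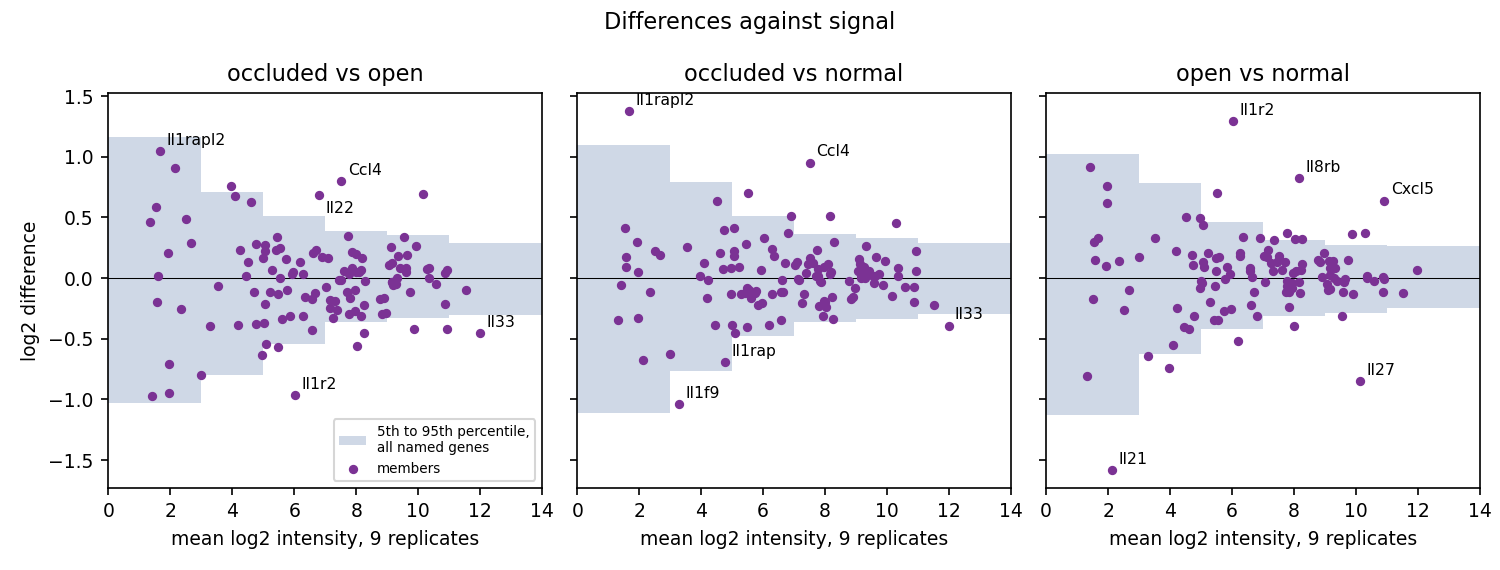
Log2 difference (vertical axis) of each gene against its mean log2 intensity over 9 replicates (horizontal axis) in the 3 comparisons; the shaded band is the 5th to 95th percentile of all named genes of like intensity. Of 121 genes, 12, 7 and 16 lie outside the band, with Ccl4 at 0.80 and 0.95 and Il1r2 at -0.96 and 1.29.

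Genes acting downstream or beside the set were read from lists. Of 33 genes of signalling below interleukin receptors, 29 were measured and 0 were called in any comparison. At an unadjusted p under 0.05, 0 of the 29 were higher and 2 lower in occluded than in open mucosa. Of all probes 3.56% were higher and 2.63% lower at that p. The 2 genes were Socs3, a feedback inhibitor of STAT signalling (-0.50 ± 0.17, adjusted p = 0.61), and Stat6, the factor below interleukins 4 and 13 (-0.35 ± 0.14, adjusted p = 0.77). Of 22 genes of signalling below chemokine receptors, all 22 were measured and 0 were called, also at the unadjusted p in occluded against open mucosa. Of 12 chemokine genes with other symbols, 2 of which are also counted above, 0 were called. Ccrl2, a receptor that presents chemerin without signalling, differed by 0.52 ± 0.22 (adjusted p = 0.79). Of 36 other cytokine genes 33 were measured and 0 were called. Osm, or oncostatin M, differed by 0.52 ± 0.19 (adjusted p = 0.65) and Csf3, the growth factor of neutrophils, by 0.51 ± 0.19 (adjusted p = 0.70). The medians of the 4 lists lay between -0.091 and -0.051 in occluded against open mucosa.

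The spread between replicates set these limits. For genes above noise on all arrays, the median SD was 0.28 between repeat arrays and 0.33 between biological replicates, and the 36 genes below noise on at least 1 array had 0.98 and 0.58. Of 17 genes with a pair of probes, 11 had both above noise on all arrays. Both probes had the same sign for 6 of the 11 in occluded against open mucosa, 9 in occluded against normal and 8 in open against normal mucosa. If the letter in the sample titles, and not the number, marked the biological replicate, 3, 3 and 1 genes would be called in the 3 comparisons, where 805, 803 and 121 probes would be called.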

How the data were processed

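Amino-allyl RNA was amplified from total RNA, coupled to Cy5 and hybridised, 1 sample per array, per the labels' protocols. The probe intensity values were deposited by the authors on a linear scale. The sources used here do not state scanner, background method or normalization. Values at or below 0 (1.45% to 3.93% of an array) were set to the lowest positive value, 0.912, before log2; 0 value columns were left unused. Arrays were quantile normalized and arrays a to c averaged per replicate, giving 9 values per probe. limma 3.58.1 in R 4.3.3 (statmod 1.5.0, data.table version 1.17.8) fitted all 3 groups, treating the individual as random block (correlation 0.389). Both sides come from the same individuals per the design text; equal title numbers were taken to mark 1 mouse, which the labels do not state, and their deviations from group means correlated at 0.516, -0.0044 and 0.142. Where nothing shows that replicates were separate animals, p-values measure the spread between these samples only.

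Symbols came from the platform annotation (21020 probes named); of several probes, that with the highest mean was used. All 121 genes matched the RefSeq gene table of GRCm38.p6, used for names. The genes, lists and tests were chosen with earlier results of these data known. Named by rule were 54 genes: any called, the 5 smallest p in each direction and comparison, the 15 highest mean intensities and fixed ligand and receptor partners. Other genes with values in the text were chosen after their values were seen, as relatives or partners. A run of the fit on simulated data checked only that a large added difference was recovered. It does not gauge power at the sizes reported here. Alternatives covered the block, normalization, dim probes, probe choice, repeat arrays, title reading, samples fitted, prior and each replicate left out.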

Additional observations from a re-analysis of the deposited data

How the results depend on the processing

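The number of genes called was 0 in the 3 comparisons under all alternatives but 1, with 15 alternatives in occluded against open mucosa and 17 in each of the others. The exception reads the letter of the titles as the biological replicate. It gave 3 calls in occluded against open mucosa (Il22, Il27 and Il33), 3 in occluded against normal mucosa (Ccl4, Ccl9 and Il8rb) and 1 in open against normal mucosa (Il8rb, adjusted p = 0.0048). Each replicate value then averages arrays of different numbers. Called genes were also 0 with no replicate block, with a fixed replicate block on the pairs and with one by number across all samples. Over all probes the calls in occluded against open mucosa were 66, against 0 to 805 under the alternatives, in occluded against normal mucosa 2, against 0 to 803, and in open against normal mucosa 0, against 0 to 121.

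Without normalization between arrays the median difference of the set was -0.054 in occluded against open, 0.082 in occluded against normal and 0.15 in open against normal mucosa. With 1 replicate left out it ran from -0.084 to 0.035 in occluded against open, from -0.12 to 0.068 in occluded against normal and from -0.037 to 0.070 in open against normal mucosa, so its sign depends on single replicates. Ccl4 kept its direction and an unadjusted p under 0.05 in all 15 and 17 alternatives of the comparisons with the occluded side, with 0.64 to 0.89 and 0.76 to 1.07. Il1r2 did so in occluded against open (-1.20 to -0.51) and in open against normal mucosa (0.75 to 1.55). Il33 was between -0.53 and -0.32 in occluded against open mucosa, with such a p in 10 of 15. The 36 genes below noise on 1 or more arrays are limited by signal over background.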

Other observations

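Values also moved with the replicate number, over all probes as well as in the set. Replicate 1 was lowest in all 3 groups for 9 of the 121 genes (7.44%), against 14.1% of all probes, among them Cxcl12, Cxcl5, Il1r1, Il18r1 and Il13ra1. It was highest in all 3 groups for 26 genes (21.5%), against 18.9% of all probes, among them Ccl2, Ccl3, Ccl9, Ccl12, Cxcl9, Cxcl10, Il13 and Il7r. Replicate 2 was lowest in all 3 groups for 7 genes (5.79%, against 2.70% of all probes), Ccl4 among them. It was highest only for Il2 (0.83%, against 1.83% of all probes). Replicate 3 was lowest in all 3 groups only for Cxcl16 (0.83%, against 2.76% of all probes) and highest for 0 genes, against 2.92% of all probes. The normal samples come from other animals than the same-numbered occluded and open samples.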
